A study of Anguilla anguilla with 12 samples.

Results

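Transcripts of 118 genes for pre-mRNA splicing and for heterogeneous nuclear ribonucleoproteins (hnRNPs), of 31061 annotated genes in all, were followed from the oocyte to the ovulated egg of the European eel, Anguilla anguilla. A gene was taken if its annotated product named an hnRNP, a splicing factor, a small nuclear ribonucleoprotein (snRNP) or a pre-mRNA processing factor, and raver1, whose product holds none of these words, was taken by name. Of the 118 genes, 45 had LOC names only. The libraries came from wild-type farmed eels, 3 females for each steroid. All of them had been turned female with estradiol in the feed, had swum for weeks in seawater, had carried an implant of methyltestosterone and estradiol and had been matured with carp pituitary extract, so the oocytes and the eggs share these treatments and stand for hormone-treated farmed fish. Selected oocytes of a female, taken by cannula shortly before progesterone (P) or DHP (17α,20β-dihydroxy-4-pregnen-3-one) was injected, made up the control sample, and the eggs were stripped from the same females once they could be released, at no fixed time. This gave 12 libraries in 4 groups of 3. Libraries 1, 5 and 9 are of oocytes before P and libraries 2, 6 and 10 of eggs after P. Libraries 3, 7 and 11 hold oocytes before DHP, and 4, 8 and 12 hold the eggs of that arm. Values of a group are given in the order of these library numbers.

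The spliceosome takes introns out of pre-mRNA. It is built anew on each intron from the U1, U2, U4, U5 and U6 snRNPs. Each is a small nuclear RNA with a set of proteins of its own and a ring of Sm proteins, or in U6 of Sm-like (LSm) proteins. U1 marks the start of the intron and U2 the branch point, the U4/U6.U5 tri-snRNP then joins, and the Prp19 complex and the step factors see the intron through both cuts. SR proteins mostly favour the use of nearby splice sites, and hnRNPs coat pre-mRNA, mostly counter such use and also serve in export, stability and translation of mRNA. A full-grown fish oocyte stores such mRNAs for an embryo that will at first not transcribe, and mRNAs of maturing oocytes are in general turned on or off through the length of their poly(A) tails. As the library kit picks up polyadenylated RNA, a transcript whose tail was lengthened and one that became more abundant cannot be told apart here. Without transcript lengths, levels are compared between libraries and not between genes. Where a gene is said to have the highest mean count of its class, this is its mean over all 12 libraries, which also reflects its length, and other genes of the class can be higher in a group.

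Between 6612347 and 9903122 fragments per library had been counted in genes. Normalized counts are these counts after scaling to a common library size with TMM, log2 fold changes are egg over oocyte ± standard error (SE) with 3 libraries in each group, and a gene was called higher or lower at an adjusted p under 0.01 from edgeR's quasi-likelihood test over all genes tested. The oocyte markers, mostly egg envelope genes, summed to 21210 to 35690 normalized counts in the oocyte libraries and to 8785 to 17900 in the eggs. Of 27 tested 17 were lower after P and 9 after DHP, and 1, ddx4, was higher in both arms (4.85 ± 0.41 and 4.35 ± 0.50). The 15 follicle cell markers summed to 3575 to 11180 in oocytes and to 435 to 2580 in eggs, and 9 of 11 tested were lower and 1 was higher after P, 6 of 9 lower after DHP. Of these 15 markers 1 to 3 were at 0 in an oocyte library and 10 to 12 in an egg library, apart from egg library 8 with 5 at 0. The 7 markers of smooth muscle and stroma went from 979 to 6919 in oocytes to 4.88 to 228 in eggs, the highest again in library 8. The oocyte samples thus held RNA of follicle and stromal cells that the eggs mostly lacked, and its part in the values below was not tested. In such bulk samples fewer cells of a type and less RNA per cell cannot be told apart.

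In eggs after P, 58 of the 112 splicing and hnRNP genes tested were higher than in oocytes before P and 16 were lower, while 38 were not called. Among all genes tested 17.9% were called higher and 22.7% lower, against 51.8% and 14.3% of these genes. Their median log2 fold change was 1.21, and that of all genes was -0.26. In eggs after DHP, 37 of 113 were higher than in oocytes before DHP and 2 were lower, against 7.35% and 6.22% of all genes tested, with a median log2 fold change of 0.87 against -0.20. Together the 118 genes took 3.91 ± 0.19% of the counted fragments (SD, n = 3) in eggs after P and 1.92 ± 0.31% in oocytes before P, and 3.76 ± 0.59% and 1.87 ± 0.38% with DHP. The libraries of the eggs all lay above those of the oocytes in this share. With scaling on library totals alone the fold changes of all genes shifted downwards, to medians of -1.01 after P and -0.80 after DHP. The calls were then 33 higher and 26 lower after P, so that 55.9% of the called genes were higher in place of 78.4%, and 21 higher and 11 lower after DHP, or 65.6% in place of 94.9%. Over all genes tested the calls went from 2744 higher and 3483 lower to 1295 and 5205 after P. After DHP they went from 1114 and 943 to 490 and 2105. The distance of the median of the splicing and hnRNP genes from that of all genes moved little, from 1.48 to 1.47 after P and from 1.07 to 1.11 after DHP. None of these genes that was called changed sign.

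**Figure D1:**
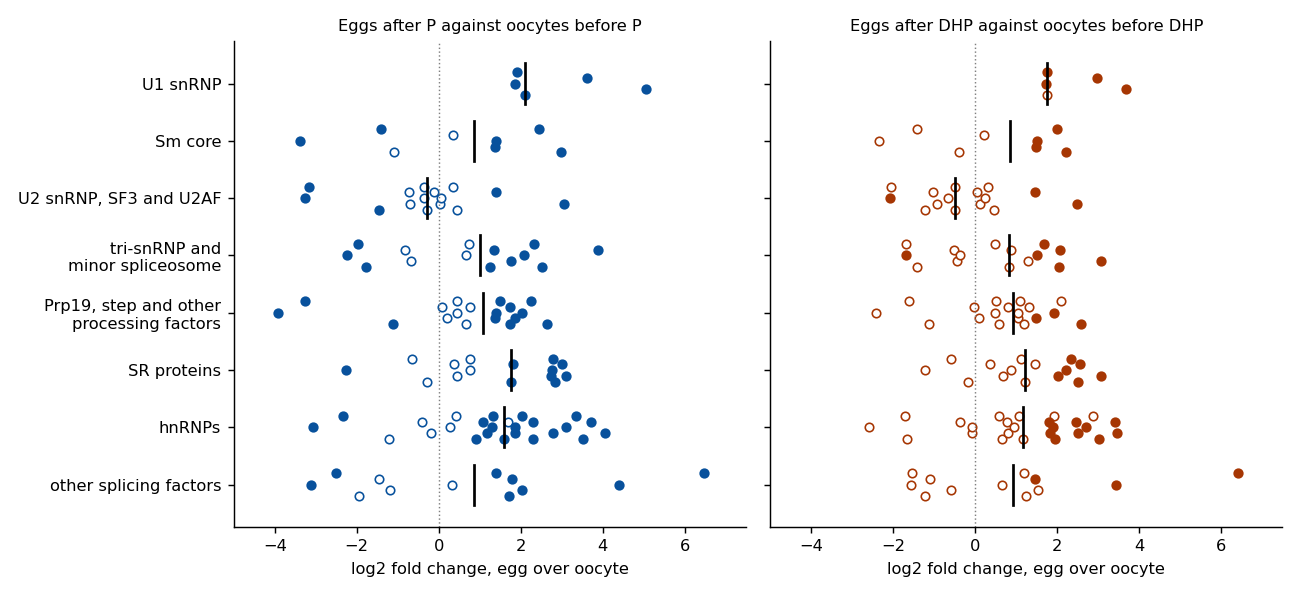
Log2 fold changes, egg over oocyte, of each splicing and hnRNP gene tested (points) by class, after P (left, 112 genes) and after DHP (right, 113 genes). Filled points were called at an adjusted p under 0.01 and black bars are class medians. These were above 0 in every class but that of U2, SF3 and U2AF in both panels and kept their side of 0 under each of 3 scalings. In the main fits the medians of all genes tested were -0.26 after P and -0.20 after DHP.

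The calls after DHP rested on few libraries. Without library 7, 11 or 12 the number called higher dropped from 37 to 3, 5 and 2, and the 2 genes called lower were lost. Over all genes tested the number higher dropped too, from 1114 to 65, 124 and 65. The number lower dropped there from 943 to 127, 241 and 57. Without library 4 the numbers among the splicing and hnRNP genes were 18 and 0, and without library 8 they were 28 and 5. Over all genes they were 559 and 218 without library 4, and 747 and 961 without library 8. raver1 was the sole splicing or hnRNP gene called in all 6 fits that each left out a library. The other 38 calls after DHP, those given below included, were each lost without library 7, 11 or 12, and their largest adjusted p from edgeR over the 6 fits ran from 0.0102 to 0.0482. After P, 52 of 74 calls held in all 6 fits, and for the other 22 the largest adjusted p ran from 0.0109 to 0.0431. How many of all called genes held in all 6 fits was not counted in either arm. Without library 9 the number called lower fell from 16 to 10, and over all genes from 3483 to 2609. With libraries of the same replicate number paired, as taken to be of the same female, 5 genes were called lower after DHP in place of 2. Over all genes 1351 were then called lower in place of 943. Of the 112 genes tested in both arms 107 moved in the same direction, an agreement that was not counted over all genes. All 35 genes called after P only had the same sign after DHP, and 33 of them an unadjusted p under 0.05 there. Of all 15149 genes tested after DHP 6954 had such a p, and neither share was counted among all genes called after P only. Their median sizes were 1.75 after P and 1.28 after DHP on the log2 scale for the 35. Picking genes by a call after P only may in itself have favoured the larger size there.

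raver1, which encodes a partner of the splicing repressor PTB, had the largest log2 fold change of these genes in both arms. It was taken by name with earlier results of these data known, so this rank may reflect that choice. Its oocyte libraries held 54.8, 17 and 3.75 normalized counts before P and 65.5, 35.0 and 32.8 before DHP, and its egg libraries 2339.7, 3363 and 1176 after P and 4522, 2804 and 4566 after DHP. Even the lowest egg library lay far above the highest oocyte library, and oocyte library 9 was the lowest of all. The log2 fold changes were 6.47 ± 0.80 (adjusted p = 0.000149, edgeR) after P and 6.40 ± 0.46 (adjusted p = 0.000688, edgeR) after DHP. The gene lies on chromosome 17 (27119100 to 27131855, build fAngAng1.pri).

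All 5 genes of the U1 class were higher after P and 4 of the 5 after DHP, with median log2 fold changes of 2.11 and 1.77. Of all genes tested 17.9% and 7.35% were higher. snrpa encodes the A protein of the U1 snRNP, which binds a stem loop of U1 RNA. It held 363, 127 and 166 normalized counts in oocytes before P and 7057, 8096 and 6797 in eggs after P. Before DHP it held 735, 949 and 236, and after DHP 9554, 7702 and 8566. The groups did not overlap in either arm, and 2 of the 3 oocyte libraries before DHP lay above all of those before P. From oocyte to egg the log2 fold change was 5.05 ± 0.42 (adjusted p = 2.46e-05, edgeR) after P and 3.69 ± 0.49 (adjusted p = 0.00202) after DHP, the latter call being lost without library 12 (adjusted p = 0.0102). The gene lies on chromosome 12 (26585299 to 26589776).

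The C protein of U1, which steadies the pairing of U1 with the start of the intron, is annotated at a pair of loci. LOC118208029 (chromosome 11, 24633788 to 24639930) went from 211, 399 and 74.0 normalized counts to 2703, 3141 and 2658 after P, a log2 fold change of 3.61 ± 0.52, and had 2.98 ± 0.40 after DHP. LOC118210944 (chromosome 13, 37451801 to 37457266) went from 1063, 1458 and 1211 to 3517, 5030.2 and 5193, with 1.86 ± 0.25 after P and 1.75 ± 0.30 after DHP. Both were called in both arms (adjusted p from 0.000254 to 0.00395 from edgeR). Reads that the copies share could have been counted for either. snrnp70, for U1-70K, the protein through which SR proteins reach U1, had the highest mean count of the class. It held 3524, 4814 and 3653 normalized counts in oocytes before P and 13182, 15666 and 16846 in eggs after P (1.91 ± 0.24, adjusted p = 0.000145), with 1.74 ± 0.29 (adjusted p = 0.00363) after DHP. The U1-70K-like LOC118221128 rose after P (2.11 ± 0.28) and had 1.77 ± 0.42 after DHP, where it was not called (adjusted p = 0.0123), though with the libraries paired it was (adjusted p = 0.00698).

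The Sm ring holds a copy each of B, D1, D2, D3, E, F and G, and the transcripts of these proteins did not move together. Of 8 Sm genes tested 4 were higher and 2 lower after P, and 4 were higher after DHP. The shares over all genes were 17.9% higher and 22.7% lower after P, and 7.35% higher after DHP. Falls after P were thus about as frequent in this class as over all genes. snrpb, for Sm B, rose from 1233, 2599 and 2505 normalized counts to 10161, 20005 and 21125 after P, a log2 fold change of 2.99 ± 0.38 (adjusted p = 0.000179, edgeR). After DHP it had 2.22 ± 0.32 (adjusted p = 0.00273). snrpe, for Sm E, rose from 333, 317 and 276 to 1151, 1974 and 2012 (2.45 ± 0.29, adjusted p = 0.000123), and had 1.99 ± 0.34 (adjusted p = 0.00408) after DHP. In both genes every egg library lay above every oocyte library. snrpd3, for Sm D3, with the highest mean count of the ring, had 5841, 5141 and 4158 in oocytes before P and 14575, 12820.0 and 12948 in eggs (1.39 ± 0.22, adjusted p = 0.000637) and 1.52 ± 0.32 (adjusted p = 0.0075) after DHP. snrpf, for Sm F, had 1.36 ± 0.31 (adjusted p = 0.00428) after P, a call that was lost without library 1, 6, 9 or 10 (adjusted p up to 0.0209), and 1.48 ± 0.30 (adjusted p = 0.00652) after DHP.

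The genes snrpd1, at one of the loci for Sm D1, and snrpg, for Sm G, went the other way. snrpd1 (chromosome 8, 30036669 to 30038784) fell from 456, 195 and 302 normalized counts in oocytes to 28.8, 41.4 and 21.6 in eggs after P, a log2 fold change of -3.39 ± 0.46 (adjusted p = 0.000251, edgeR). Its DHP libraries held 182, 436 and 294 in oocytes and 29.7, 128 and 32.1 in eggs, with egg library 8 well above the other 2 but still below the lowest oocyte library. This was -2.35 ± 0.66 and was not called (adjusted p = 0.0228), but with the libraries paired (adjusted p = 0.00487) or without library 8 (-3.34, adjusted p = 0.00624) it was. The other locus for Sm D1, LOC118207863, had no call, with 1393, 1156 and 1054 in oocytes before P and 1416, 1867 and 1381 in eggs after P (0.35 ± 0.24) and 0.22 ± 0.33 after DHP. snrpg fell from 872, 635 and 1192 to 282, 333 and 422 after P (-1.40 ± 0.32, adjusted p = 0.00394), which was lost without library 1, 2, 6 or 9 (adjusted p up to 0.0196), and had -1.42 ± 0.43 (adjusted p = 0.0297) after DHP. snrpd2, for Sm D2, had -1.09 ± 0.35 (adjusted p = 0.0233) after P, called with pairing (adjusted p = 0.00444), and -0.40 ± 0.50 after DHP.

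**Figure D2:**
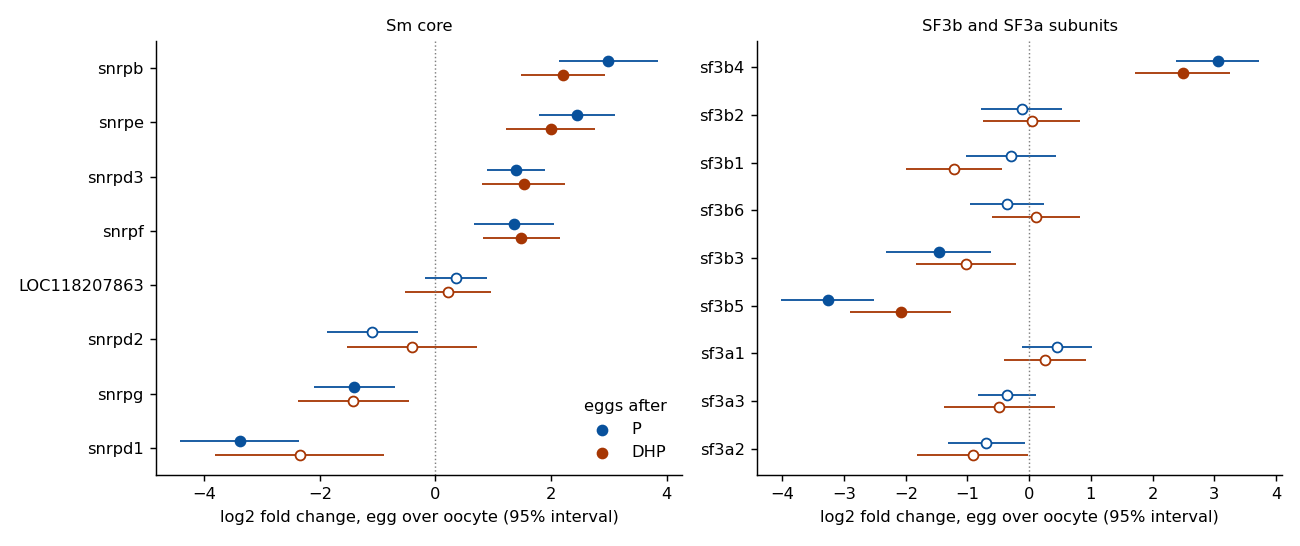
Log2 fold changes, egg over oocyte, with 95% intervals, of the 8 Sm genes (left) and of the SF3b and SF3a genes tested (right), after P (blue) and after DHP (brown), 3 libraries in each group. Filled points were called at an adjusted p under 0.01. Among the Sm genes snrpb had 2.99 and snrpd1 -3.39 after P, while the other Sm D1 locus, LOC118207863, was not called. Within SF3b sf3b4 had 3.05 and sf3b5 -3.27 after P.

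Of the U2, SF3 and U2AF class 2 of 15 genes tested were higher and 3 lower after P, and 2 higher and 1 lower after DHP, close to the shares over all genes (17.9% and 22.7% after P, 7.35% and 6.22% after DHP). Its medians of -0.29 after P and -0.48 after DHP were the only negative ones among the classes, where all genes tested had -0.26 and -0.20. After P the class was thus close to all genes. Its genes took 0.120 ± 0.006% of fragments in eggs after P and 0.212 ± 0.016% in oocytes before P. The share of every other class was higher in the eggs. With library totals as the only scaling the class medians were -1.06 after P and -1.07 after DHP, and those of all genes -1.01 and -0.80. SF3b is the part of U2 that clasps the branch point. sf3b5 (chromosome 2, 31751036 to 31752088), for its smallest subunit, fell from 1246, 739 and 837 normalized counts to 121, 96.3 and 79.1 after P, a log2 fold change of -3.27 ± 0.34 (adjusted p = 5.94e-05, edgeR). With DHP it went from 701, 761 and 979 to 153, 246 and 207 (-2.08 ± 0.36, adjusted p = 0.00421), and no egg library reached an oocyte library. This call was lost without library 4, 7, 11 or 12 (adjusted p up to 0.0187), with log2 fold changes from -2.22 to -1.90 over all 6 such fits. sf3b4, for a subunit that touches the intron upstream of the branch point, rose from 169, 287 and 244 to 1758, 1760.0 and 2384 after P (3.05 ± 0.30, adjusted p = 4.46e-05) and had 2.49 ± 0.34 (adjusted p = 0.0023) after DHP.

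The remaining SF3b genes moved less. sf3b1, for the large scaffold subunit, had -0.29 ± 0.33 after P and -1.22 ± 0.35 (adjusted p = 0.0244, edgeR) after DHP, sf3b2 had -0.12 ± 0.29 and 0.04 ± 0.35, and sf3b6, which lies at the branch point, had -0.35 ± 0.27 and 0.11 ± 0.32, all without a call. sf3b3 fell after P (-1.47 ± 0.38, adjusted p = 0.00861), a call that was lost without library 2, 5, 6 or 9 (adjusted p up to 0.0405). sf3a3, of the SF3a part of U2, had the highest mean count of the class, with 3637, 3044 and 3766 normalized counts in oocytes before P and 2665, 2829 and 2766 in eggs (-0.36 ± 0.21, not called). The proteins that belong to U2 alone split as well: snrpb2 rose in both arms (1.40 ± 0.28 after P, 1.46 ± 0.27 after DHP), the former lost without library 1 (adjusted p = 0.0109), and snrpa1 had -0.72 ± 0.27 and -0.67 ± 0.35. LOC118213717, like the small U2AF subunit that reads the end of the intron, fell from 871, 568 and 536 to 72.5, 89.0 and 61.9 after P (-3.16 ± 0.34, adjusted p = 7.75e-05). Its DHP libraries went from 416, 548 and 339 to 72.6, 207 and 52.5 (-2.06 ± 0.55), again with egg library 8 the highest of the eggs, and this was not called (adjusted p = 0.0193), but with the libraries paired (adjusted p = 0.00581) or without library 8 (-2.84, adjusted p = 0.00579) it was.

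In the tri-snRNP and minor spliceosome class 7 of 14 genes tested were higher and 3 lower after P, and 5 of 15 higher and 1 lower after DHP. Over all genes tested 17.9% were higher and 22.7% lower after P, and 7.35% and 6.22% after DHP. The class thus stood out in its rises, while its falls were close to the shares over all genes. LOC118212913, Prp3-like, went from 177, 146 and 124 normalized counts to 1692, 2229 and 2734 after P, a log2 fold change of 3.88 ± 0.30 (adjusted p = 1.79e-05, edgeR), and from 243, 359.8 and 155 to 3237, 1642 and 1780.0 after DHP (3.07 ± 0.44, adjusted p = 0.00254). Its namesake LOC118233696 had at most 15.5 normalized counts in any library. prpf4, whose protein binds Prp3, rose from 430.5, 442 and 332 to 2016, 2618 and 2413 after P (2.53 ± 0.25, adjusted p = 4.86e-05) and had 2.05 ± 0.36 (adjusted p = 0.00417) after DHP. prpf31, which holds U4 and the tri-snRNP together, had the highest mean count of the class, with 3502, 4176 and 1772 in oocytes before P and 17392, 20066 and 10587 in eggs (2.32 ± 0.37, adjusted p = 0.000554), and it had 2.07 ± 0.30 (adjusted p = 0.00269) after DHP.

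The U5 proteins were divided. prpf8, for the protein at the heart of the spliceosome, rose in both arms (2.08 ± 0.36 after P, 1.68 ± 0.28 after DHP), and snrnp200, for the helicase that opens the U4/U6 pairing, had 0.67 ± 0.21 and 0.48 ± 0.26 without a call. snrnp40 (chromosome 8, 24857073 to 24864639), for a ring-shaped U5 protein, fell from 2627, 2592 and 3236 normalized counts to 1209.6, 536 and 749.6 after P, a log2 fold change of -1.78 ± 0.32 (adjusted p = 0.00113, edgeR). With DHP it went from 2273, 2166 and 2637 to 663, 993 and 662 (-1.69 ± 0.31, adjusted p = 0.00487), a call lost without library 4, 7, 11 or 12 (adjusted p up to 0.0249). The eggs lay below the oocytes in each arm. prpf4ba, for a kinase of the tri-snRNP, fell from 521, 607 and 411 to 119.7, 68.3 and 144 after P (-2.24 ± 0.37, adjusted p = 0.000714) and had -1.42 ± 0.40 (adjusted p = 0.0235) after DHP. Of the genes of the minor spliceosome, which takes out a rare class of introns, cenatac fell after P (-1.96 ± 0.46), a call lost without library 1, 6, 9 or 10 (adjusted p up to 0.0235), and snrnp25, snrnp35 and snrnp48 were not called, with -0.67 ± 0.33, 0.75 ± 0.29 and -0.82 ± 0.34 after P.

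Among the Prp19, step and other processing factors 9 of 18 genes were higher and 3 lower after P, and 3 higher after DHP. Among all genes tested 17.9% were higher and 22.7% lower after P, and 7.35% higher after DHP. Falls after P were thus no more frequent in this class than over all genes. yju2 (chromosome 6, 4363159 to 4368115), for a factor of the branching step, held 1151, 786 and 872 normalized counts in oocytes before P and 51.8, 69.5 and 66.2 in eggs after P, a log2 fold change of -3.93 ± 0.32 (adjusted p = 2.21e-05, edgeR) and the largest fall of all 112 genes. With DHP it held 527, 724 and 624 in oocytes and 33.3, 301 and 40.8 in eggs. Egg library 8 was several times as high as libraries 4 and 12, yet below each oocyte library, and the change of -2.41 ± 0.77 was not called (adjusted p = 0.037), but with the libraries paired (adjusted p = 0.00833) or without library 8 (-4.11, adjusted p = 0.00201) it was. slu7, for a factor of the exon-joining step, rose from 1155, 1018 and 569.6 to 6799, 5337 and 5292 after P (2.65 ± 0.31, adjusted p = 0.000106), and from 1294, 636 and 498 to 6908, 4472 and 3876 after DHP (2.58 ± 0.43, adjusted p = 0.00369).

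Within the Prp19 complex itself prpf19, for the ubiquitin ligase that gives it its name, rose in both arms (1.85 ± 0.25 after P, 1.5 ± 0.32 after DHP), syf2 rose after P (2.03 ± 0.36), bcas2 had 0.07 ± 0.24 and isy1 0.20 ± 0.31. crnkl1, for a helical scaffold protein of the complex, fell from 1017, 1063 and 836 normalized counts to 119.7, 87.8 and 99.3 after P, a log2 fold change of -3.27 ± 0.29 (adjusted p = 3.18e-05, edgeR). Its DHP libraries went from 412, 891 and 729 to 172, 383 and 150.2 (-1.61 ± 0.47, adjusted p = 0.0278), where the groups did not overlap but egg library 8 came close to oocyte library 3. LOC118236324, annotated as RBM22, a factor that helps hold the catalytic RNA in shape, had the highest mean count of the class, with 1662, 2657 and 2276 in oocytes before P and 5332, 6802 and 6673 in eggs (1.49 ± 0.25, adjusted p = 0.000826) and 1.06 ± 0.35 (adjusted p = 0.0432) after DHP. The 3 loci annotated as PRPF39, a U1-associated factor, had graded values. si:ch211-114c17.1 rose in both arms (2.24 ± 0.27 and 1.93 ± 0.28), LOC118230220 rose after P (1.38 ± 0.29, lost without library 1, 6 or 9 with adjusted p up to 0.0153) and had 1.11 ± 0.36 after DHP, and LOC118227577 had 0.77 ± 0.36 and 0.52 ± 0.35 with no call.

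Of 15 SR protein genes 8 were higher and 1 lower after P, and 6 were higher after DHP. That was 53.3% higher and 6.67% lower after P, against 17.9% and 22.7% of all genes, and 40.0% higher after DHP, against 7.35%. srsf1b, for a member that binds exon enhancers, had the highest mean count of the class and held 2189, 2569 and 1111 normalized counts in oocytes before P and 14357, 13746 and 12823 in eggs after P. Its log2 fold change was 2.78 ± 0.32 (adjusted p = 0.000106, edgeR), and after DHP it was 2.23 ± 0.45 (adjusted p = 0.00654), where oocyte library 3 with 4478 lay well above libraries 7 and 11 with 1762 and 1519. srsf3b and srsf7a, whose proteins also help mRNA leave the nucleus, rose likewise. srsf3b went from 1496, 1115 and 1074 to 6867, 8259 and 9729.5 after P (2.73 ± 0.26, adjusted p = 3.75e-05), and srsf7a had 3.01 ± 0.29 after P and 2.52 ± 0.38 after DHP. LOC118233478, SRSF10-like, went from 75.9, 116 and 43.1 to 715, 701 and 632 after P (3.09 ± 0.40, adjusted p = 0.000178) and from 124, 65.8 and 52.2 to 996, 425 and 711 after DHP (3.07 ± 0.50, adjusted p = 0.00364), with no overlap. srsf10a, the other SRSF10 gene, stayed between 9.39 and 37.9 in all 12 libraries and was not called. The one SR gene called lower was LOC118220964, SRSF7-like, which went from 127, 226 and 239 to 20.7, 53.6 and 50.4 after P (-2.27 ± 0.49, adjusted p = 0.00303). This call was lost without library 5 or 9 (adjusted p up to 0.0119), and after DHP the gene had -1.22 ± 0.48 (adjusted p = 0.0745).

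The hnRNPs were the largest class and took the largest share of the fragments, at 1.92 ± 0.22% of counted fragments (SD, n = 3) in eggs after P and 0.667 ± 0.162% in oocytes before P. Of 25 tested 17 were higher and 2 lower after P, and 10 were higher after DHP. By share this was 68.0% and 8.0% after P, against 17.9% and 22.7% of all genes, and 40.0% after DHP, against 7.35%. hnrnpm (chromosome 4, 24915736 to 24924027), for a protein that binds GU-rich stretches, had the smallest p of all 118 genes after P. It held 718, 867 and 683 normalized counts in oocytes before P and 9617, 10626 and 10012 in eggs after P, a log2 fold change of 3.72 ± 0.24 (adjusted p = 1.36e-05, edgeR). With DHP it went from 1508, 602 and 543 to 12877, 10617 and 7220.4 (3.46 ± 0.46, adjusted p = 0.00203), lost without library 7 alone (adjusted p = 0.0117). hnrnpua, for a nuclear matrix protein that binds chromatin-associated RNA, went from 397, 939.5 and 197 to 8953, 8898 and 7983 after P (4.05 ± 0.51, adjusted p = 0.000173) and from 1356, 399.9 and 290.3 to 10118, 4883 and 7911 after DHP (3.42 ± 0.60, adjusted p = 0.00429). The oocyte libraries of this gene spread by several-fold within each arm, and every egg library lay above all of them. The K-like LOC118213110 and hnrnpk, for a protein that binds C-rich stretches, rose together, with 3.34 ± 0.40 and 3.10 ± 0.46 after P and 3.02 ± 0.52 and 2.71 ± 0.47 after DHP.

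Of all 118 genes LOC118222665, hnRNP A0-like, on chromosome 3 (49365346 to 49367035), had the most counted fragments. It held 12954, 12165 and 11186 normalized counts in oocytes before P and 76397, 76851 and 99526 in eggs after P, a log2 fold change of 2.78 ± 0.23 (adjusted p = 2.34e-05, edgeR). With DHP it went from 19383, 9777 and 8178 to 84007, 68625 and 71373 (2.51 ± 0.35, adjusted p = 0.00246). It alone made up 0.738 ± 0.084% of the counted fragments of eggs after P and 0.181 ± 0.017% of those of oocytes before P. LOC118222666, also A0-like, starts 1095 bases beyond its end and behaved differently, with 866, 1097 and 498 in oocytes before P, 731, 674 and 463 in eggs after P (-0.42 ± 0.34) and -0.08 ± 0.31 after DHP, neither called. The third A0-like locus, LOC118223493 on the same chromosome, rose in both arms (2.30 ± 0.29 and 1.95 ± 0.37). The A1-like LOC118208692, for the best known splicing repressor of the family, went from 1464, 2659 and 894 to 21948, 17336 and 18768 after P (3.51 ± 0.39, adjusted p = 9e-05). Before DHP it held 4998, 826 and 881 and after DHP 19724, 13810 and 17759. Oocyte library 3 was several times as high as libraries 7 and 11, and the change of 2.87 ± 0.67 was not called (adjusted p = 0.0114), but with the libraries paired (adjusted p = 0.00376) or without library 3 (4.29, adjusted p = 0.000437) it was. The A1-like LOC118210743 rose in both arms (2.03 ± 0.28 and 1.91 ± 0.40).

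The L family was split. hnrnpl (chromosome 9, 39117081 to 39142532), for a protein that binds CA repeats, fell from 1117, 959.9 and 1057 normalized counts to 282, 199.9 and 142 after P, a log2 fold change of -2.34 ± 0.32 (adjusted p = 0.000238, edgeR), and had -1.65 ± 0.41 (adjusted p = 0.0146) after DHP, from 929.8, 856 and 1203 to 196, 499.9 and 309. The L-like LOC118210231 went from 514, 614 and 664 to 1107, 1081 and 1224 after P (0.91 ± 0.24, adjusted p = 0.00894), a call lost without any of libraries 1, 2, 5, 6, 9 and 10 in turn (adjusted p up to 0.0431), and had 0.79 ± 0.34 after DHP. This locus lies 1946 bases from srsf7a on chromosome 12, while another L-like gene, LOC118221095, lies 70279 bases from the SRSF7-like LOC118220964 on chromosome 2. In the pair on chromosome 12 both were called higher after P, and in the pair on chromosome 2 the SR gene was lower and the L-like gene, with at most 12.3 normalized counts, was not tested. hnrnpa3, with low counts, was the other hnRNP lower after P, with 55.6, 66.9 and 74.0 against 13.8, 2.44 and 7.19 (-3.06 ± 0.67, adjusted p = 0.00355), lost without library 1, 5, 6, 9 or 10 (adjusted p up to 0.0153), and -2.58 ± 0.63 (adjusted p = 0.014) after DHP.

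Further hnRNP genes of similar name had values of unequal size. LOC118227584 and LOC118233287, hnRNP R and R-like, rose after P by 2.30 ± 0.51 and 1.08 ± 0.27 on the log2 scale, calls lost without library 1, 2 or 6 (adjusted p up to 0.0199) and without library 1, 2, 6, 9 or 10 (adjusted p up to 0.0269). After DHP LOC118227584 rose (2.47 ± 0.42) and LOC118233287 had 0.95 ± 0.34 (adjusted p = 0.052, edgeR). Of the H-like loci, for proteins that bind runs of G, LOC118236192 rose after P (1.29 ± 0.27, lost without library 1, 6 or 9 with adjusted p up to 0.0137) and LOC118223421 had 0.28 ± 0.27. hnrnpdl rose after P (1.18 ± 0.26, lost without library 1, 2, 5 or 9 with adjusted p up to 0.0153), and its neighbour hnrnpd, which lies 1370 bases away on chromosome 14, had 0.43 ± 0.31. Near-identical stretches of such genes could have drawn reads from each other, so their separate values are uncertain.

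**Figure D3:**
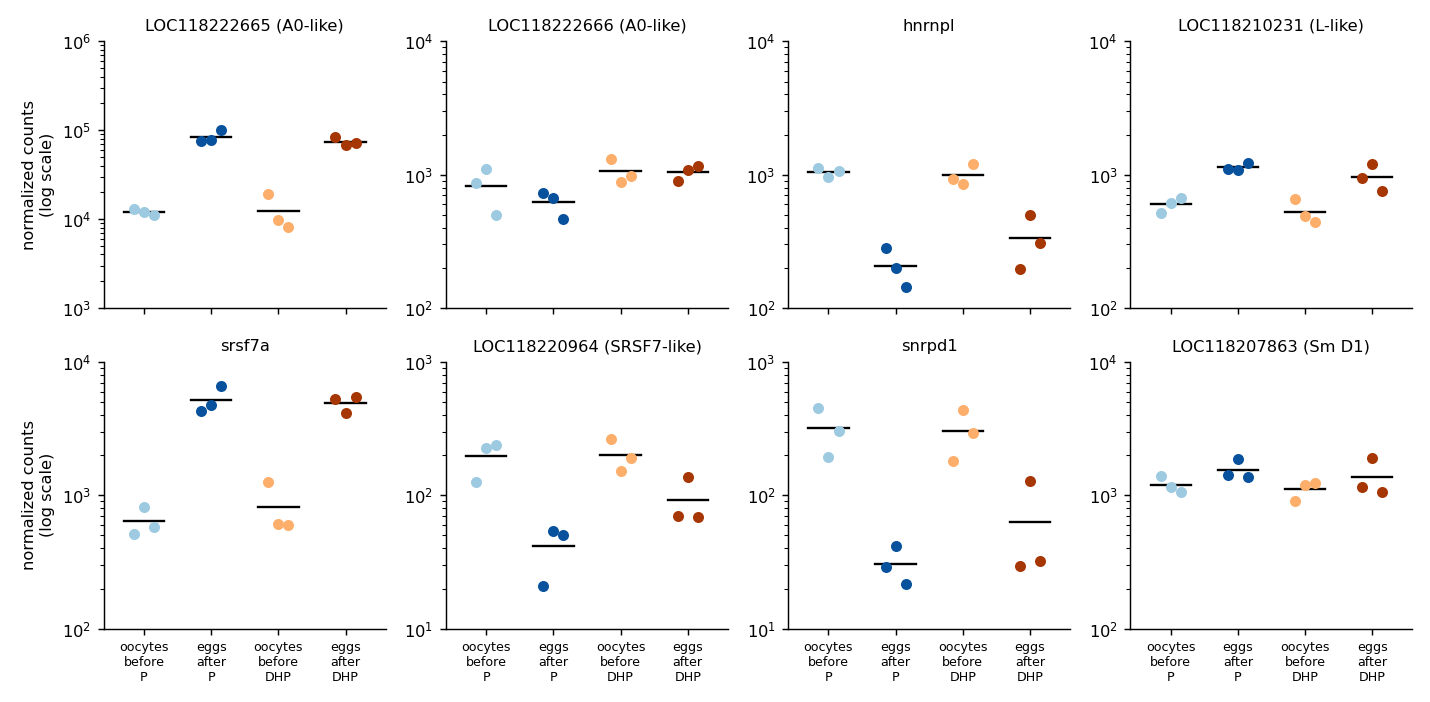
Normalized counts (log scale) of 8 genes in the 12 libraries (points) with the mean of each group (bars), shown as A0-like, L, SRSF7 and Sm D1 genes beside a gene of the same family. After P, LOC118222665, LOC118210231 and srsf7a were higher and hnrnpl, LOC118220964 and snrpd1 lower, while LOC118222666 and LOC118207863 were not called.

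Of the other 12 splicing factor genes 6 were higher and 2 lower after P, and 3 were higher after DHP. For all genes tested the shares were 17.9% higher and 22.7% lower after P, and 7.35% higher after DHP. Here too falls after P were no more frequent than over all genes. puf60a, for a relative of the large U2AF subunit that binds U-rich stretches, held 29.0, 93.8 and 54.3 normalized counts in oocytes before P and 963, 1598 and 1242 in eggs after P, a log2 fold change of 4.39 ± 0.46 (adjusted p = 6.29e-05, edgeR). With DHP it went from 113, 58.6 and 82.4 to 1011, 624 and 1264 (3.44 ± 0.45, adjusted p = 0.00201). LOC118225225, the other PUF60 gene, rose by 1.72 ± 0.23 after P and 1.46 ± 0.28 after DHP. sfpq, a paraspeckle protein, had the highest mean count of them, with 2044, 3234 and 1639 in oocytes before P and 6802, 6161 and 5637 in eggs (1.41 ± 0.28, adjusted p = 0.00221), lost without library 1 (adjusted p = 0.0134), and 1.2 ± 0.35 (adjusted p = 0.0271) after DHP, where it was called without library 3 (1.67, adjusted p = 0.00696). The called falls after P were those of sfswap and aar2. sfswap, for an SR-rich regulator first known from the fruit fly, went from 279, 159 and 221 to 21.9, 32.9 and 21.6 (-3.12 ± 0.43, adjusted p = 0.000265) and had -1.55 ± 0.54 after DHP. aar2, for a chaperone that holds Prp8 until U5 is complete, went from 388, 197 and 316 to 43.7, 68.3 and 48.9 (-2.5 ± 0.40, adjusted p = 0.00062) and had -1.23 ± 0.52 after DHP.

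**Figure D4:**
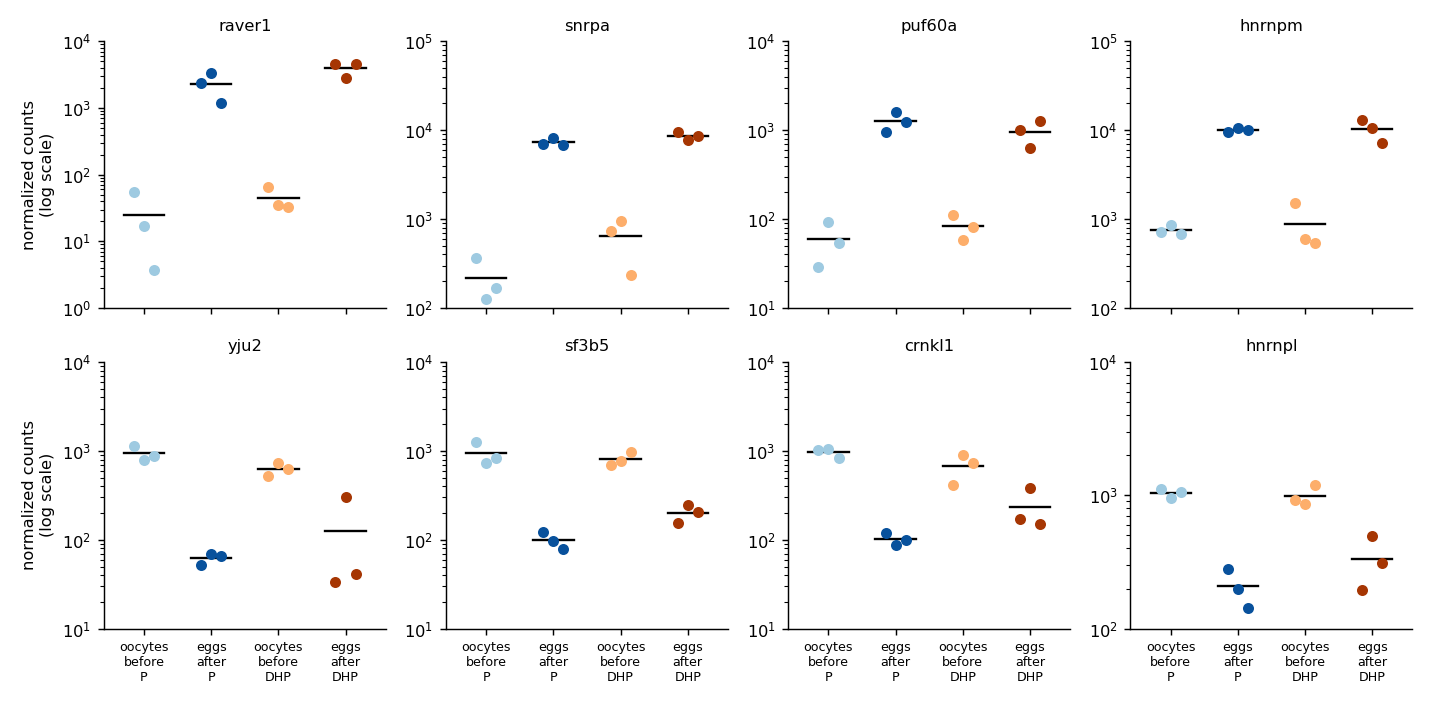
Normalized counts (log scale) of 8 genes in the 12 libraries (points) with the mean of each group (bars). raver1, snrpa, puf60a and hnrnpm (top) were higher and yju2, sf3b5, crnkl1 and hnrnpl (bottom) lower in every egg library than in every oocyte library of the same arm, and in yju2 egg library 8 stood at 301 beside 33.3 and 40.8.

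Some libraries, 3 and 8 among them, stood apart in many of these genes, which was not counted over all genes. Of the 58 genes called higher after P, oocyte library 3 was the highest of the 3 oocyte libraries before DHP in 45, and oocyte library 5 the highest of those before P in 39. Oocyte library 9 was the lowest of those before P in 36. Of the 16 called lower after P, egg library 8 was the highest of the eggs after DHP in 12. Library 8 was also the egg library with the most smooth muscle and stromal RNA, 228 normalized counts against 4.88 to 64.1 in the other eggs, and had counts for all 7 of these markers where the other eggs had 4 or 5 at 0. Oocyte library 3 had the highest sum of these markers of all 12 libraries, 6919 against 979 and 3037 in libraries 7 and 11, and the lowest follicle sum of the oocytes, 3575. The part of such RNA in the DHP values was not tested.

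To compare the steroids, eggs after P were set against eggs after DHP. P is the precursor of DHP, which carries a hydroxyl group more and an alcohol where P has a ketone in its side chain, and the females of both arms had received the same dose. At an adjusted p under 0.01, edgeR called 0 of the 110 splicing and hnRNP genes tested, as it called 0.0% of all genes. DESeq2 and limma-voom also called 0 of the 110, and over all genes DESeq2 called 6 higher and 3 lower after P and limma-voom 0. An unadjusted p under 0.05 was reached by 6 of the 110 genes and by 4.57% of all genes. The differences ran from -1.13 to 1.07 on the log2 scale and were within 0.5 of 0 in 88 genes. For 59 of the 110 the 95% interval lay within 1 log2 unit of 0, and for 101 within 2 units, so the interval of the other 51 reached beyond a 2-fold difference. The smallest p belonged to prpf4, with 2016, 2618 and 2413 normalized counts after P and 1266, 1343 and 851 after DHP, a difference of 1.07 (95% interval 0.48 to 1.67, adjusted p = 0.984). snrpf came next, with 1249, 2551 and 2135 after P and 4868, 3821 and 3187 after DHP (-0.97, interval -1.63 to -0.31). The third was crnkl1 at -1.12 (interval -2.16 to -0.08). In these 3 genes, picked for their small p, all P eggs lay on the same side of all DHP eggs, and none passed the adjusted threshold. Over all 110 genes the eggs after P lay wholly above those after DHP in 6 and wholly below in 5. Such separation was not counted over all genes, so nothing particular to these genes is read from it.

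**Figure D5:**
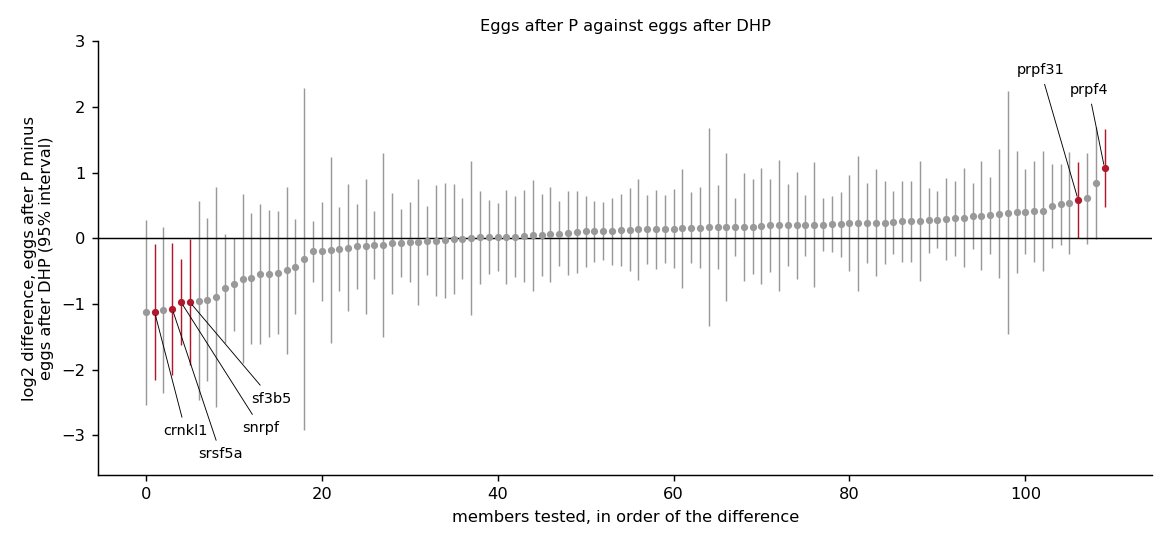
Log2 differences, eggs after P minus eggs after DHP, with 95% intervals for the 110 splicing and hnRNP genes tested, in order of size (3 libraries against 3). Red marks the 6 genes whose interval leaves out 0, from crnkl1 at -1.12 to prpf4 at 1.07, and 0 of the 110 were called at an adjusted p under 0.01.

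Before injection the oocytes of both arms were compared as a baseline. edgeR called 0 of 113 genes, against 0.0% of all genes. DESeq2 and limma-voom also called 0 of the 113, and over all genes DESeq2 called 5 higher and 5 lower before DHP. An unadjusted p under 0.05 was reached by 2 of 113 genes and by 3.06% of all genes. These were snrpf, with 765, 915 and 589 normalized counts before P and 1590.5, 1183 and 1253 before DHP (0.83, interval 0.22 to 1.44), and snrpa (1.54, interval 0.32 to 2.76), and snrnp48 came next (-0.66, interval -1.36 to 0.03). Each had an adjusted p of 0.999 from edgeR. snrpf was thus higher in all 3 DHP libraries than in all 3 P libraries both before the injection and in the eggs, and its log2 fold changes of 1.36 and 1.48 from oocyte to egg were close. Over all 113 genes the oocytes before DHP lay wholly above those before P in 2 and wholly below in 2, which again was not counted over all genes. prpf4, with the lower values in eggs after DHP, had 217, 337 and 236 before DHP and 430.5, 442 and 332 before P, groups that overlapped (-0.61, interval -1.31 to 0.09).

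Whether the egg-to-oocyte change itself differed between the steroids was asked of all 12 libraries at once. edgeR called 0 of 115 genes and 0.0% of all genes, DESeq2 and limma-voom called 0 of the 115 (DESeq2 called 3 of all genes), and 3 of the 115 reached an unadjusted p under 0.05 against 4.14% of all genes. These were crnkl1 (-1.72, interval -2.91 to -0.53), sf3b5 (-1.24, interval -2.22 to -0.26) and sfswap (-1.64, interval -3.06 to -0.22), each at an adjusted p of 1.0. All 3 were among the genes called lower after P, and in each the eggs after P held less than the eggs after DHP on average. Genes called after P and not after DHP were therefore not shown to respond differently.

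Genes of the same pathway that lie outside the 118 were counted for comparison, where 17.9% of all genes were higher and 22.7% lower after P and 7.35% and 6.22% after DHP. Of 9 cap-binding and export genes 5 were higher after P and 4 higher after DHP, among them ncbp2, of the nuclear cap-binding pair, with 2.70 ± 0.29 and 3.00 ± 0.48, and alyref, an export adaptor, with 2.64 ± 0.32 and 2.21 ± 0.35. Of 9 exon junction complex genes 4 were higher and 1 lower after P, and 2 higher and 1 lower after DHP, with magoh, of its core, higher (1.36 ± 0.21 and 1.5 ± 0.26) and srrm2, for a large SR-rich scaffold, lower (-2.16 ± 0.43 and -1.87 ± 0.35). The spliceosomal helicases counted 5 higher and 1 lower of 11 after P and 2 higher after DHP, with dhx8, which frees the spliced mRNA, at 4.32 ± 0.29 and 2.88 ± 0.54. The LSM genes, those annotated as LSm1 included, counted 2 of 9 higher and 2 lower after P. lsm5 rose (2.52 ± 0.32) and lsm8 and lsm4 fell (-5.32 ± 0.57 and -3.34 ± 0.39). The genes that assemble snRNPs counted 3 higher and 4 lower of 13 after P and 2 and 2 after DHP. strap, for a partner of the SMN complex, and prmt5, for the enzyme that methylates Sm proteins, were lower in both arms, and tgs1, which makes the cap of snRNAs, was higher in both (2.62 ± 0.32 and 2.2 ± 0.30).

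Several of these counts were close to the shares over all genes. Of 7 PTB genes and raver2 tested 2 were higher and 3 lower after P, and 1 was higher and 1 lower after DHP. ptbp1b rose in both arms (2.34 ± 0.32 and 2.08 ± 0.46), raver2 rose after P (2.98 ± 0.38), and the PTB 3-like LOC118206259 fell in both (-7.29 ± 0.53 and -5.72 ± 0.77). The kinases of SR proteins counted 2 higher and 3 lower of 10 after P. Of the tissue-specific splicing regulators 4 of 21 were higher and 4 lower after P, and 3 of 22 were lower after DHP, among them mbnl3, a muscleblind gene, at -4.61 ± 0.70. The other Prp19 complex genes counted 2 higher and 2 lower of 8 after P, with bud31 at 2.87 ± 0.26 and xab2 at -2.58 ± 0.39, and 1 higher after DHP.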

How the data were processed

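RNA-seq libraries of oocytes and eggs were prepared with a poly(A)-selecting, stranded kit. The authors aligned the reads to the European eel genome (fAngAng1.pri) with TopHat2 2.0.13, removed secondary alignments with SAMtools 1.2 and deposited counts of fragments per gene made with HTSeq 0.6.1p1. Whether HTSeq counted by strand was not stated in what was read here, so overlapping genes may share reads. The deposited tables also hold normalized values, fold changes and p-values of the authors' comparisons, made with DESeq, which were not used. The 12 libraries that appear in more than 1 table held equal counts in each.

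The counts were scaled with TMM and fitted with edgeR 4.0.16 (R 4.3.3; quasi-likelihood test, Benjamini-Hochberg adjustment over all genes tested, genes kept with filterByExpr at a minimum count of 10). Each comparison used its 6 libraries, and the difference between steroids used all 12. Calls were made at an adjusted p under 0.01. The study's own threshold was p under 0.01, and it did not state whether this p was adjusted. The main fits treated the libraries as unpaired. The alternatives were DESeq2 1.42.0, limma-voom (limma 3.58.1), other scalings and filters, a fit of all libraries, a replicate block that pairs libraries and the omission of each library. The fits were also run on simulated data, and the outcome is not given here. Tables were handled with pandas 2.3.3 and drawn with matplotlib 3.10.9.

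The study's methods sampled females before and after injection, but neither they nor the labels say which replicate number is which female. Over all genes the deviations of same-numbered oocyte and egg samples from the group means correlated at r = 0.27 to 0.40. The other pairs had -0.29 to -0.06, so the numbers were taken to pair the libraries of a female. p-values reflect the spread between 3 females per arm.

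The 118 genes, their classes and all gene lists were chosen with earlier results of these data known. Genes were named by a rule: raver1, hnrnpm, snrpa, sf3b5 and yju2, up to 8 called genes with the largest change in each direction without overlap and averaging 50 normalized counts or more, the called gene of smallest p in each direction and the most abundant gene of each class, copies of the same product of which at least 1 was called higher and another not, and the 3 smallest p where none was called. Product names were compared with '-like' left out, so hnrnpd and hnrnpdl, which are distinct genes, counted as copies by name. Other genes are named to complete a complex or family and were chosen after their values were seen. snrpa1 and snrpb2 were placed with U2. All 118 genes matched RefSeq by gene ID. No sequences were used here.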

Additional observations from a re-analysis of the deposited data

How the results depend on the processing

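No gene called in either arm changed sign under any alternative. Of the uncalled genes with printed values, those that changed sign with library totals as the only scaling were, after P, LOC118207863 (-0.40), LOC118223421 (-0.46), bcas2 (-0.67), hnrnpd (-0.33), isy1 (-0.53), snrnp200 (-0.0791), snrnp35 (-0.0103) and srsf10a (-0.38), and after DHP LOC118207863 (-0.40), LOC118227577 (-0.0845), isy1 (-0.0071), sf3b2 (-0.57), sf3b6 (-0.48), snrnp200 (-0.12) and srsf10a (-0.24). Values near 0 changed sign elsewhere: after DHP LOC118222666 without a filter (0.0184), LOC118223421 with RLE scaling and DESeq2 (0.0244), without a filter (0.0338) and in a fit of all libraries (0.0135), bcas2 under the same settings (0.057, 0.0796 and 0.0503) and sf3b2 at a minimum count of 50 (-0.0682), where bcas2 after P had -0.0505. Leaving out a library in turn, the uncalled values that changed sign ran after P from -0.0522 to 0.18 (bcas2), -0.49 to 0.0027 (sf3b1) and -0.31 to 0.22 (sf3b2), and after DHP from -0.0541 to 0.37 (LOC118207863), -0.23 to 0.13 (LOC118222666), -0.23 to 0.088 (LOC118223421), -0.23 to 0.18 (bcas2), -0.20 to 0.34 (sf3b2) and -0.0295 to 0.35 (sf3b6). With library totals as the only scaling 33 genes were higher and 26 lower after P (1295 and 5205 of all genes), and 21 higher and 11 lower after DHP (490 and 2105). The number lower after DHP, 2 in the main analysis, was 13 at an adjusted p under 0.05, 10 with DESeq2, 5 with limma-voom, 8 in a fit of all 12 libraries and 5 with the replicate block that pairs the libraries of a female. Over all genes 943 were lower after DHP in the main analysis. In the same order of settings there were then 2755, 2212, 1270, 1618 and 1351. Leaving out a library in turn gave 10 to 14 lower after P, 2 to 39 higher after DHP and 0 to 5 lower after DHP, with the fewest lower after P without library 9 and the fewest higher after DHP without library 12. Over all genes these ran from 2497 to 2869, from 65 to 976 and from 57 to 961. The causes were not tested. The counts of 0 between the eggs, between the oocytes and for the difference in change stayed at 0 in every alternative run. Beyond the calls given with the results, the block changed those of LOC118219831, LOC118220345, ess2, si:ch211-107m4.1 after P and of LOC118219399, srsf6b and syf2 after DHP, all of which were then called. With 3 females per arm the intervals between the eggs had a median width of 1.41 on the log2 scale.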

Other observations

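Of the 118 genes 6 had too few counts to be tested after P, and raw counts are given without a test. LOC118220240, LOC118221095 and LOC118233696 had 0 to 8, 0 to 16 and 0 to 21 raw counts per library. LOC118220102, annotated as SF3A2-like, had 31 counts in egg library 6 and 15, 8 and 12 in libraries 5, 7 and 8, and 0 in the other 8 libraries. Its counts thus came, in each arm, from a single pair of libraries taken to be of the same female. raly, an hnRNP C relative, had 17 counts in each of libraries 7 and 8 and at most 6 in any other. The L-like LOC118218203 had 67 counts in oocyte library 3, 42 in oocyte library 5 and at most 13 elsewhere. In oocyte library 3 it thus held more than in the 6 egg libraries together, which had 0 to 5 each.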
